A study of Mus musculus with 96 samples.

Results

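The calcium-calmodulin kinase genes were examined at chromatin level in the hippocampus of mice lacking the DNA glycosylases Ogg1, Mutyh or both. The set held 10 genes, taken by symbol: Camk2a, Camk2b, Camk2d, Camk2g, Camk4, Camk1, Camk1d, Camk1g, Camkk1 and Camkk2. Of the 22815 consensus peaks in the 6 tables of the series, 13 carried a symbol of the set. The rule used symbols only, and the set was proposed with earlier results of these data known. Hippocampal nuclei of 6-month-old mice were used, from single knockouts (Mutyh-/- or Ogg1-/-), from a knockout of both genes (DKO) and from wild type (WT), so that 4 genotypes were compared. All were on a C57BL/6N background, and each sample was a pool of hippocampi from several animals of the same genotype. The double knockout came from crossing the single knockouts (Mutyh-/-xOgg1-/- in the labels). No cell-type driver is given for either deletion, and WT carried neither. Sorting by NeuN, which is found in the nuclei of neurons, separated neuronal nuclei (NeuN+) from those of other cells, mostly glia (NeuN-). Chromatin immunoprecipitation and sequencing (ChIP-seq) was done for H3K4me3, H3K27me3 and Suz12, with 3 replicates per genotype, which gave 12 libraries in each of the 6 tables.

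These kinases read calcium signals. Calcium that enters a neuron binds calmodulin, and the complex activates the kinases. CaMKII, a large multimer built from the products of Camk2a, Camk2b, Camk2d and Camk2g, phosphorylates itself and is required for long-term potentiation at hippocampal synapses. CaMKI and CaMKIV are switched on further by the upstream kinases Camkk1 and Camkk2, and CaMKIV acts in the nucleus on the transcription factor CREB. H3K4me3 marks the start of active or poised genes. H3K27me3, laid down by Polycomb repressive complex 2 of which Suz12 is a subunit, marks silenced genes.

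All 10 kinase genes carried an H3K4me3 peak at their promoter in NeuN+ nuclei, 1 peak each, and 0 of them had an H3K27me3 or Suz12 peak there. In NeuN- nuclei, only Camk2b and Camk2d had an H3K4me3 peak, Camk2b also had an H3K27me3 peak, and 0 had a Suz12 peak. For comparison, of the 11160 genes with a promoter H3K4me3 peak in NeuN+, 26.0% also had a promoter H3K4me3 peak in NeuN-, 3.75% a promoter H3K27me3 peak in NeuN- and 3.22% a promoter H3K27me3 peak in NeuN+. The kinases stood at 2 of 10, 1 of 10 and 0 of 10. Of 8 related kinases outside the set, read with the pathway list below, 4 had an H3K4me3 peak in NeuN+. Of all 43 genes on that list, 38 had one. The 10 of 10 in NeuN+ thus depends on which genes were made members, and how far it stands out depends on the genes set beside it. A gene without a peak is one that was not listed, which does not mean that it had no reads. A library held 39320 to 120004 reads in the 3270 H3K4me3 windows of NeuN-, against 96023 to 548706 in the 12628 windows of NeuN+. In NeuN- a single window took 25.4% to 59.3% of a library's H3K4me3 reads and 20.6% to 73.0% of its H3K27me3 reads, so these totals overstate the depth at other windows, while in NeuN+ H3K4me3 the highest window took at most 4.02%. The median H3K4me3 window held 4 to 16 reads per library in NeuN- and 7 to 43 in NeuN+.

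Promoter sequence was printed for 4 members that mark the extremes of these results: Camk2b and Camk2d, found in both fractions, Camkk2, with the highest H3K4me3 level in NeuN+, and Camk1g, with the lowest. Each stretch is the part of the 250 bases before the RefSeq start that lay outside every annotated exon (RefSeq promoter table and sequence, GRCm38, GENCODE M21 exons), 5′ to 3′ on the strand of the gene. Capitals mark CpG, the dinucleotide in which cytosine can be methylated and which is dense in CpG islands.
Camk2b chr11:6065749-6065998: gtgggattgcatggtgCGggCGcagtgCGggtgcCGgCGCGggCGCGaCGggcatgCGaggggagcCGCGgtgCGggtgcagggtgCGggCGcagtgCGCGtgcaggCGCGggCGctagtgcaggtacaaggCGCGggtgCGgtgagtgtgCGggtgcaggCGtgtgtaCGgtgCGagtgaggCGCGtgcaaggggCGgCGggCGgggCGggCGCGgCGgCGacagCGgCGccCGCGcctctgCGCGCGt
Camk2d chr3:126596701-126596950: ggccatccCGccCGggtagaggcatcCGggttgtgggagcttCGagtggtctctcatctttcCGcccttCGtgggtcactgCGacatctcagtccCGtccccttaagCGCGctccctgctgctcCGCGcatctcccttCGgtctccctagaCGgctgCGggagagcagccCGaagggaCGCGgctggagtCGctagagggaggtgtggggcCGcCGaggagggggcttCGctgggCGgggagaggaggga
Camkk2 chr5:122779411-122779524: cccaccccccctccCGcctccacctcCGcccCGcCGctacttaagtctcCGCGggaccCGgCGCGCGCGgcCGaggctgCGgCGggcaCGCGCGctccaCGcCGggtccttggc
Camk1g chr1:193370299-193370532: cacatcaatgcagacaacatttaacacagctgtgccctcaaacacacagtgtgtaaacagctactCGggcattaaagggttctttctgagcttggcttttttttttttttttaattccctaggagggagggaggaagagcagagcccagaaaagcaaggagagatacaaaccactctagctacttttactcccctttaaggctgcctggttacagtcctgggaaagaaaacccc
Camk2b, Camkk2 and Camk1g lie on the minus strand and Camk2d on the plus strand. The stretches are not the windows in which H3K4me3 was counted. With the NeuN+ H3K4me3 window they shared 6 bp at Camk2d and 0 bp at Camk2b, Camkk2 and Camk1g. The Camk2b stretch held 44 CpG in 250 bases and 78.4% GC, the Camk2d stretch 23 CpG in 250 bases and 68.4% GC, and the Camkk2 stretch 19 CpG in 114 bases. The Camk1g stretch held 1 CpG in 234 bases and 44.9% GC. Over the whole 250 bases, 99.5% of the 32851 promoters in the RefSeq table had fewer CpG than Camk2b and 7.87% had fewer than Camk1g, with a median of 6. The table matched 7 of the 10 members. Over the 250 bases of these 7, read on both strands, the cyclic AMP response element bound by CREB (TGACGTCA) was found in 0 and its shorter core (TGACG, contained in the longer motif) in 2, Camk1 and Camkk1. Of all promoters, 1.55% held the former and 17.8% the latter. The GC box (GGGCGG) was found in 5 of the 7, all but Camk1g and Camk1, against 32.7% of all promoters. A TATA box (TATAAA) was found in 0 of 7 and in 12.4% of all promoters. These are matches of letters only.

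Each of the 13 peaks was a counting window of 401 bp, so the values give the signal near a promoter and not the width of the marked domain. In NeuN+ the centre of the H3K4me3 window lay downstream of the nearest annotated coding-transcript start in 9 of 10 genes, from 48 bp at Camk2d to 689 bp at Camk1g. Camk2a, the subunit typical of excitatory forebrain neurons, was the exception: its window (chr18:60926139-60926539) was centred upstream of the nearest coding-transcript start, at position -610 bp from it, and 721 bp after the most upstream one, in an intron. The windows of Camk1g (chr1:193369336-193369736), Camk2b (chr11:6064805-6065205), Camk2g (chr14:20793495-20793895) and Camkk2 (chr5:122778804-122779204) were also intronic over all 401 bp. Camk2d (chr3:126596945-126597345) lay over noncoding exon sequence for 395 bp and spanned 14 of the 28 annotated transcript starts of the gene. Camkk1 (chr11:73018992-73019392) had 120 bp of noncoding exon and Camk1 (chr6:113343561-113343961) 126 bp. Camk4 (chr18:32939219-32939619) had 177 bp of noncoding exon and 149 bp of coding sequence and overlapped another annotated gene, 2310026I22Rik. Camk1d (chr2:5713836-5714236) had 91 bp of coding sequence. Coordinates are GRCm38.

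**Figure D1:**
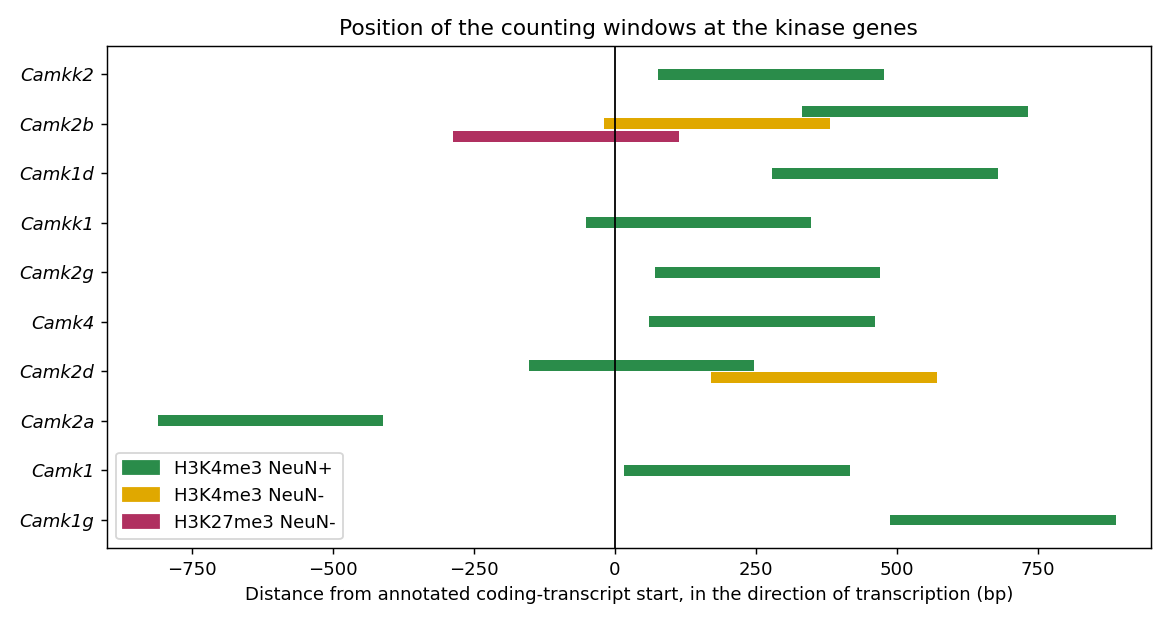
Position of each 401 bp counting window (bars, coloured by table) relative to the annotated coding-transcript start nearest to the NeuN+ H3K4me3 window (vertical line), in bp along the direction of transcription. The Camk2a window is the only NeuN+ window that lies wholly before the start, and the 3 windows of Camk2b follow each other from H3K27me3 in NeuN- to H3K4me3 in NeuN+.

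The first question was how strongly each promoter was marked in neurons. In the order of mean normalised signal over the 12 NeuN+ libraries, Camkk2 stood first with 35.2 ± 10.97 (SD, n = 12), above 94.5% of all 12628 windows. It was followed by Camk2b (31.7 ± 9.17), Camk1d (31.0 ± 11.6), Camkk1 (26.6 ± 10.9), Camk2g (25.5 ± 8.08), Camk4 (23.4 ± 7.67), Camk2d (21.8 ± 8.80), Camk2a (21.3 ± 9.47), Camk1 (15.2 ± 6.96) and Camk1g (9.36 ± 6.90). Camk1g was above only 4.11% of all windows and Camk1 above 18.3%, while Camk2a lay at 40.4%. All windows of this table have the same length, so their levels can be compared within the table. Neighbours in this order were compared within libraries by an exact two-sided permutation test of signs, adjusted over the 9 pairs. Only Camk1 and Camk1g differed: Camk1 was higher in 11 of 12 libraries, by 1.03 ± 0.35 (SE) on the log2(signal + 1) scale (exact adjusted p = 0.0132). Camk1g had no read in WT replicate 1 and DKO replicate 1, so the size of this difference depends on the 1 added to the signal. Camk2a and Camk1 differed by 0.45 ± 0.19 and Camk1d and Camkk1 by 0.28 ± 0.15 (exact adjusted p = 0.176 for both). The other 6 pairs of neighbours did not differ beyond their spread, with exact adjusted p between 0.699 and 0.934. In the WT libraries alone, Camk1 and Camk1g kept the lowest places, Camk2b stood first and Camk2a in place 5.

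The CpG content of the windows was set beside this order. The windows of Camk2a and Camk1g held 4 and 5 CpG, against a median of 35 over all NeuN+ H3K4me3 windows. Only 1.05% and 1.45% of windows had fewer. Camk1 followed with 21. Camk2b held 28, Camkk1 31 and Camk1d 36, although all of them stood among the 4 highest in level. Camkk2 held 42, Camk2g 44, and Camk2d and Camk4 54 each. Camk1g and Camk1 were low in both, Camk2b and Camkk1 had fewer CpG than the median window and a high level, and the CpG-richest windows, those of Camk2d and Camk4, were near the middle of the order. These 10 values are a description, with no test.

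**Figure D2:**
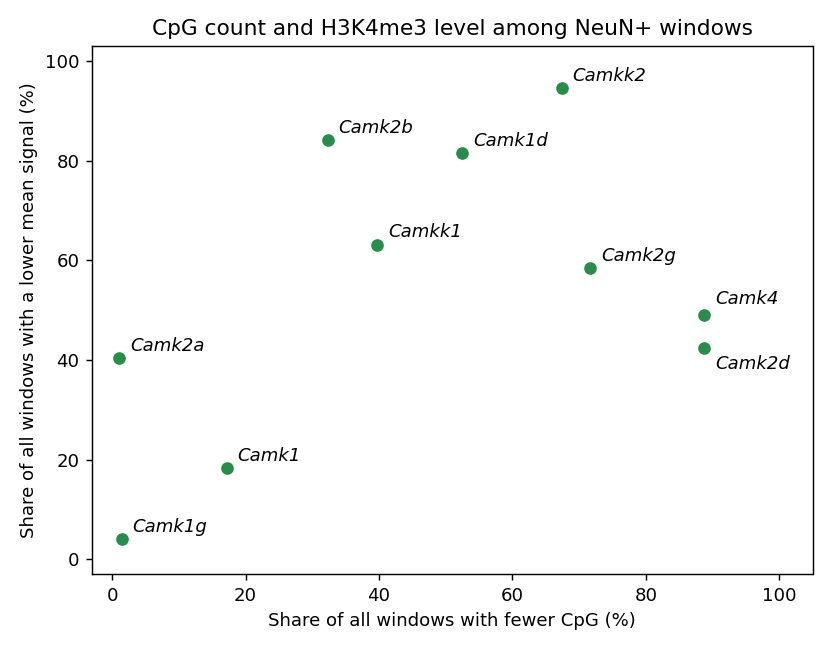
Share of all 12628 NeuN+ H3K4me3 windows with fewer CpG (horizontal axis, %) against the share with a lower mean signal (vertical axis, %), 1 point per kinase gene. Camk1g is low on both axes, Camk2a has few CpG at a level of 40.4%, and Camkk2 is highest in signal.

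The second question was whether loss of a glycosylase changed these marks. After adjustment over all windows, no change was detected at any of the 13 windows. Of the 39 combinations of a window and a knockout, 0 had an adjusted p under 0.05 with limma, the lowest being 0.998. With limma, none met the looser definition of a differentially enriched region (DER), an unadjusted p under 0.05 with an absolute log2 fold change over 0.5. The study used these thresholds with edgeR, so the limma count is not the result of its own test. In H3K4me3 NeuN+ that definition was met with limma by 0.911% of all windows for Mutyh-/-, 0.966% for Ogg1-/- and 1.46% for DKO. The kinases, at 0 of 10, lay near this background. Both depended on the scaling: with TMM factors in limma 2 of the 39 met the definition, and with loess scaling 3 did. The counts over all windows rose as well, as given below, so the 0 holds for the deposited scaling. With the edgeR quasi-likelihood test and TMM factors 4 of the 39 had an unadjusted p under 0.05, and all of these met the DER definition. With DESeq2 1 did. The counts over all windows were also higher with these tests, as given below. Leaving out DKO replicate 1 brought the number meeting the DER definition to 3, and leaving out WT replicate 1, WT replicate 2, Mutyh-/- replicate 2, Mutyh-/- replicate 3 or Ogg1-/- replicate 3 brought it to 1. The 95% intervals of the log2 fold changes reached 0.84 to 2.02 to each side of the estimate in H3K4me3 NeuN+, so changes within that reach could not be told from none. In this table the median log2 fold change of the 10 kinases was -0.05 for Mutyh-/-, -0.02 for Ogg1-/- and -0.03 for DKO, beside -0.07, 0.08 and -0.02 over all windows.

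**Figure D3:**
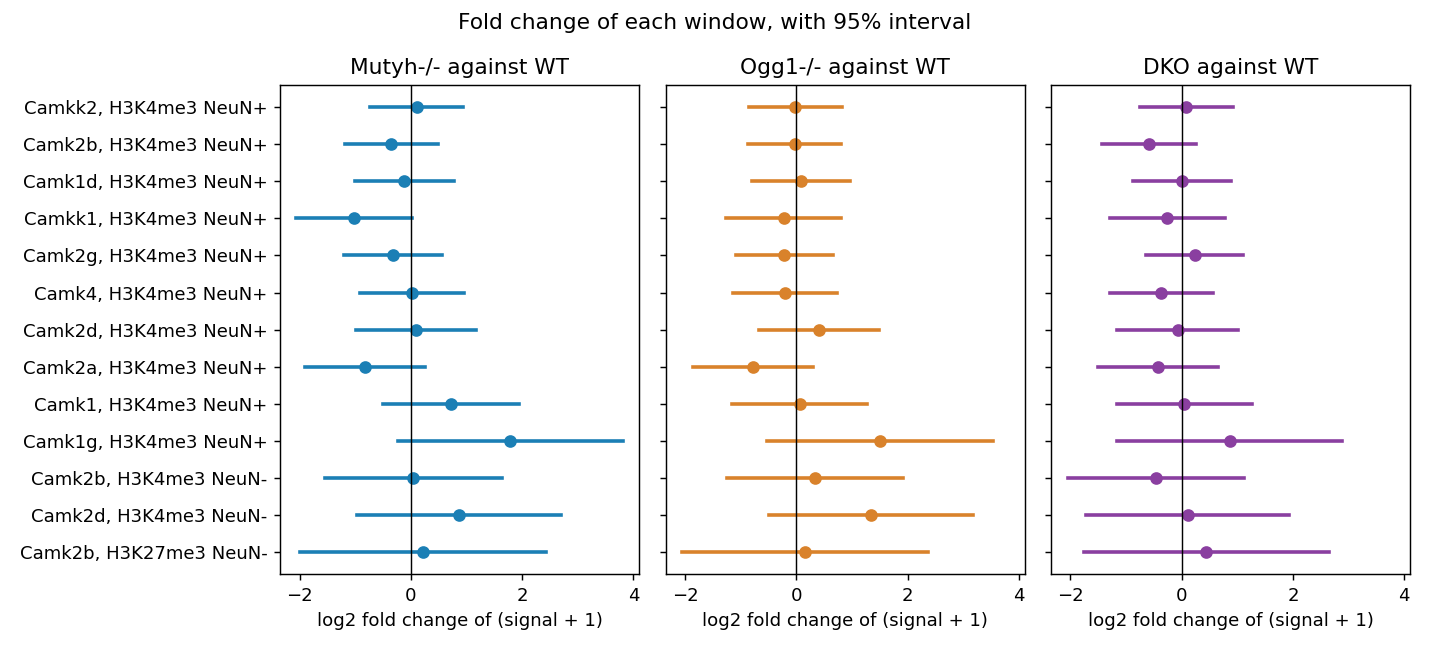
Log2 fold change of (signal + 1) against WT for each of the 13 windows (rows) in Mutyh-/-, Ogg1-/- and DKO (panels). Points are limma estimates and lines their 95% intervals, and every interval includes 0.

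Among the upstream kinases, Camkk2, which also phosphorylates AMPK, had signals of 41.2, 19.5 and 43.1 in the 3 WT libraries, 28.3, 35.8 and 42.9 in Mutyh-/-, 32.1, 24.6 and 42.3 in Ogg1-/-, and 20.3, 57.1 and 35.6 in DKO. All groups overlapped. Its fold changes were small beside their error, at 0.11, -0.02 and 0.08 for Mutyh-/-, Ogg1-/- and DKO (log2, SE 0.41 each).

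Camkk1, the other kinase of this step, gave 50.2, 18.5 and 32.3 in WT, 4.36, 24.8 and 28.0 in Mutyh-/-, 32.1, 17.4 and 33.1 in Ogg1-/-, and 24.8, 28.1 and 25.02 in DKO. The lowest value, 4 reads in Mutyh-/- replicate 1, and the highest, in WT replicate 1, lay far from the other libraries of their groups. The log2 fold change was -1.02 ± 0.51 (SE) in Mutyh-/-, with a 95% interval from -2.06 to 0.02, and -0.26 ± 0.51 in DKO, which lacks Mutyh as well. The DER definition, missed here, was met by this pair under 10 of the 23 alternative settings, while without Mutyh-/- replicate 1 the value was -0.23.

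Of the CaMKI genes, Camk1d had 41.2, 19.5 and 31.2 in WT, 15.3, 34.0 and 37.7 in Mutyh-/-, 26.2, 19.5 and 58.4 in Ogg1-/-, and 29.3, 33.0 and 26.5 in DKO. The groups overlapped and no fold change was larger than 0.11 in size. Leaving out Ogg1-/- replicate 3 moved the Ogg1-/- value from 0.08 to -0.36.

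Camk1g gave 0, 5.85 and 5.38 in WT, 5.45, 15.6 and 15.8 in Mutyh-/-, 10.7, 3.08 and 20.0 in Ogg1-/-, and 0, 16.1 and 14.4 in DKO. These are 0 to 26 reads, with no read in WT replicate 1 and DKO replicate 1. Estimates were positive in all 3 knockouts, at 1.79 ± 0.99 (SE), 1.51 ± 0.99 and 0.86 ± 0.99, but each interval included 0, the groups overlapped, and this window had the widest intervals of the table. Mutyh-/- met the DER definition under 6 of the 22 alternatives that gave a value here. Without DKO replicate 1 the DKO value rose to 2.20 and met it too, with an adjusted p that rounds to 1.

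Camk1 is the member next to a targeted gene. Camk1 and Ogg1 run towards each other on chromosome 6 (RefSeq, GRCm38: Ogg1 113326972 to 113334877, Camk1 113334124 to 113343922) and their ends share 754 bp, while the H3K4me3 windows at their promoters lie 16738 bp apart. Camk1 had 15.4, 9.76 and 10.8 in WT, 12.0, 23.0 and 28.9 in Mutyh-/-, 16.7, 5.13 and 20.8 in Ogg1-/-, and 6.77, 19.3 and 13.6 in DKO. The groups overlapped, and the 2 highest values were those of Mutyh-/-, in which Ogg1 is intact. Comparing the 6 libraries without Ogg1 with the 6 that carry it gave a log2 difference of -0.31 ± 0.42 (SE), with a 95% interval from -1.17 to 0.56 and an adjusted p that rounds to 1. For Mutyh-/- against WT the value was 0.72 ± 0.60. The window at the Ogg1 promoter itself (chr6:113326823-113327223) had 15.4, 5.85 and 10.8 in WT, 10.9, 13.8 and 14.9 in Mutyh-/-, 17.9, 6.15 and 13.8 in Ogg1-/-, and 0, 14.5 and 5.31 in DKO. Reads were thus still counted at the Ogg1 start in libraries of both Ogg1-deficient genotypes. Where the deleted part of the gene lies was not given in the sources used here, so this window does not check the labels. Mutyh had no peak in any table.

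Camk4, the nuclear kinase upstream of CREB, gave 37.3, 28.3 and 14.0 in WT, 19.6, 32.2 and 24.5 in Mutyh-/-, 20.2, 20.5 and 23.1 in Ogg1-/-, and 11.3, 31.4 and 19.0 in DKO. The Ogg1-/- libraries were the tightest of the groups and lay inside the WT range. Fold changes were 0.02, -0.20 and -0.36 (log2, SE 0.46 each) for Mutyh-/-, Ogg1-/- and DKO.

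The CaMKII genes gave the only windows at which a knockout group did not overlap WT. For Camk2a the values were 30.9, 25.4 and 26.9 in WT, 9.81, 22.1 and 15.8 in Mutyh-/-, 15.5, 6.15 and 39.2 in Ogg1-/-, and 13.5, 27.3 and 22.7 in DKO. All Mutyh-/- libraries lay below all WT libraries, but DKO overlapped WT and Ogg1-/- spread wider than any other group, from 6 to 51 reads. The log2 fold change was -0.83 ± 0.53 (SE; 95% interval -1.91 to 0.25) in Mutyh-/-, -0.77 ± 0.53 in Ogg1-/- and -0.42 ± 0.53 in DKO. For Ogg1-/- the DER definition was met under 3 of the 23 alternatives. 1 of these left out Ogg1-/- replicate 3, the highest library, and gave -1.40.

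Camk2b, whose product links the CaMKII multimer to actin, gave 38.6, 36.1 and 33.4 in WT, 29.4, 27.6 and 27.2 in Mutyh-/-, 30.9, 27.7 and 50.8 in Ogg1-/-, and 11.3, 32.2 and 35.6 in DKO. Again the Mutyh-/- libraries lay below WT without overlap, here by a small margin: the log2 fold change was -0.35 ± 0.41 (SE), against -0.03 ± 0.41 in Ogg1-/- and -0.59 ± 0.41 in DKO. The DKO value rested on replicate 1, with 5 reads, and was -0.08 without it. Groups without overlap were thus found for 2 of 10 kinase windows in Mutyh-/-, beside 5.77% of all windows, and for 0 of 10 in Ogg1-/- (3.68% of all) and in DKO (5.02% of all). Both were lower, as were 456 of the 729 windows without overlap in Mutyh-/-.

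Camk2d, the widely expressed subunit, gave 11.6, 20.5 and 25.8 in WT, 10.9, 29.4 and 23.7 in Mutyh-/-, 27.4, 15.4 and 35.4 in Ogg1-/-, and 6.77, 29.0 and 25.8 in DKO. The groups overlapped, with fold changes of 0.10, 0.41 and -0.07 (log2, SE 0.53 each). Without DKO replicate 1 the DKO value became 0.55.

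Camk2g, the remaining subunit gene, gave 41.2, 16.6 and 24.8 in WT, 27.2, 22.1 and 14.0 in Mutyh-/-, 19.0, 17.4 and 32.3 in Ogg1-/-, and 33.8, 28.1 and 29.6 in DKO. The DKO libraries were close to each other and within the WT range, and fold changes were -0.32, -0.21 and 0.23 (log2, SE 0.43 each).

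**Figure D4:**
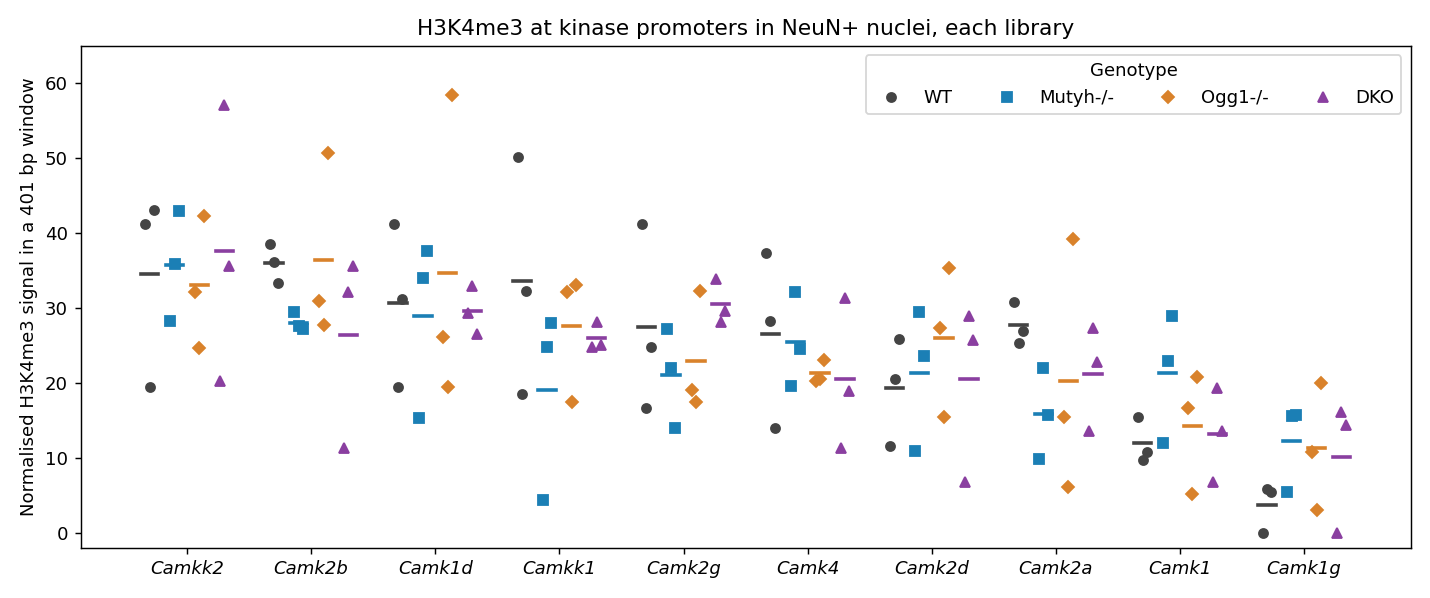
Normalised H3K4me3 signal in the 401 bp promoter window of each kinase gene in NeuN+ nuclei (genes in order of mean signal), with 1 point per library and a short line at the mean of the 3 libraries of each genotype. Mutyh-/- lies below WT without overlap at Camk2b and Camk2a only, and the other groups overlap WT at all genes.

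Some libraries were high or low at several kinases. Ogg1-/- replicate 3, the deepest NeuN+ H3K4me3 library (548706 reads in peaks), was the highest of the 12 at 5 of the 10 kinases, and its summed signal over them, 355, was the highest of all. DKO replicate 1, the shallowest (96023 reads), was the lowest at 3, with a summed signal of 158 from 70 reads. At Camk1g it tied for lowest with WT replicate 1, both without a read. At Camk2g, however, it was the second highest, and at Camk1d and Camkk1 it lay among the other libraries. Ogg1-/- replicate 2 and Mutyh-/- replicate 1 had similar sums, 157 and 162. WT replicate 1 was the highest at 3 kinases and its sum was 307. The share of reads in peaks that fell on the 10 windows ran from 6.85 to 9.82 per 10000. The part of depth in the differences between genotypes was not tested.

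The 4 genotypes form a crossed design, in which loss of each enzyme can be read over 6 libraries against 6. With limma, 0 of 26 such main effects had an adjusted p under 0.05, and 0 had an unadjusted p under 0.05 with limma, edgeR or DESeq2. The largest at a NeuN+ window with reads in all libraries was Camkk1 for loss of Mutyh, at -0.52 ± 0.36 (log2, SE), followed by Camk2b, at -0.45 ± 0.29. A test for any difference among the genotypes found 0 of 13 windows. A test of non-additivity, comparing DKO with both single knockouts added up, also found 0 of 13. The largest departures were at Camk1g in NeuN+, -2.43 ± 1.41, and at the Camk2d H3K4me3 window of NeuN-, -2.10 ± 1.29. At Camk2a in NeuN+ the departure was 1.18 ± 0.75, where both single knockouts had lower estimates than DKO.

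In NeuN- nuclei, 2 of the 3270 H3K4me3 windows and 1 of the 1698 H3K27me3 windows belonged to the set, and they show the CaMKII genes Camk2b and Camk2d under other marks. The Camk2b H3K4me3 window (chr11:6065156-6065556) was 351 bp closer to the most upstream start than the NeuN+ window and shared 50 bp with it. It gave 9.68, 11.03 and 5.91 in WT, 8.56, 16.4 and 4.88 in Mutyh-/-, 9.90, 8.78 and 15.6 in Ogg1-/-, and 12.1, 5.00 and 3.35 in DKO. All groups overlapped, and fold changes were 0.05, 0.33 and -0.46 (log2, SE 0.79 each). The Camk2d window (chr3:126597268-126597668) lay 323 bp further into the gene than that of NeuN+ and shared 78 bp with it.

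Camk2d gave 16.6, 0 and 9.45 in WT, 10.5, 15.6 and 4.88 in Mutyh-/-, 14.8, 12.8 and 12.8 in Ogg1-/-, and 15.8, 2.14 and 3.35 in DKO. The WT libraries spread over the whole range, with no read in replicate 2, while the Ogg1-/- libraries were close together. The Ogg1-/- fold change was 1.34 ± 0.92 (log2, SE; 95% interval -0.48 to 3.17), and for Mutyh-/- and DKO it was 0.87 and 0.11. Without WT replicate 2 the estimates for Mutyh-/- and DKO turned to -0.39 and -1.15, and without WT replicate 1 that for Ogg1-/- became 2.16 and met the DER definition. These windows were in the middle of their table: 37.6% of windows had a lower mean than Camk2b and 46.9% a lower mean than Camk2d. Over all NeuN- H3K4me3 windows the median log2 fold change was 0.22, 0.25 and 0.05 for Mutyh-/-, Ogg1-/- and DKO. Tables were normalised separately, so levels are not comparable between fractions.

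The Camk2b H3K27me3 window (chr11:6065424-6065824) covered 12 of the 15 annotated transcript starts of the gene, shared 133 bp with the NeuN- H3K4me3 window and 76 bp with the promoter sequence printed above. It held 73 CpG, more than 99.9% of the H3K27me3 windows of NeuN-, whose median was 8, and 77.8% GC. Its values were 6.62, 5.80 and 2.31 in WT, 10.6, 4.22 and 3.47 in Mutyh-/-, 15.8, 0 and 13.1 in Ogg1-/-, and 19.1, 0.925 and 10.2 in DKO. Libraries of the same genotype ran from no read to 18 reads in Ogg1-/- and from 1 to 22 in DKO. Replicate 1 was the highest library of every genotype at this window, with 6.62, 10.6, 15.8 and 19.1. The fold changes were 0.22, 0.16 and 0.45 (log2, SE 1.12 each) and the groups overlapped. The median over all H3K27me3 windows of NeuN- was itself above 0, at 0.29, 0.58 and 0.41 for Mutyh-/-, Ogg1-/- and DKO. Camk2b was 1 of 63 genes with promoter peaks of both marks in NeuN-, which were 2.09% of the genes with H3K4me3 and 8.02% of those with H3K27me3 there. In a bulk fraction, both marks on the same chromatin and different marks in different cells cannot be told apart.

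**Figure D5:**
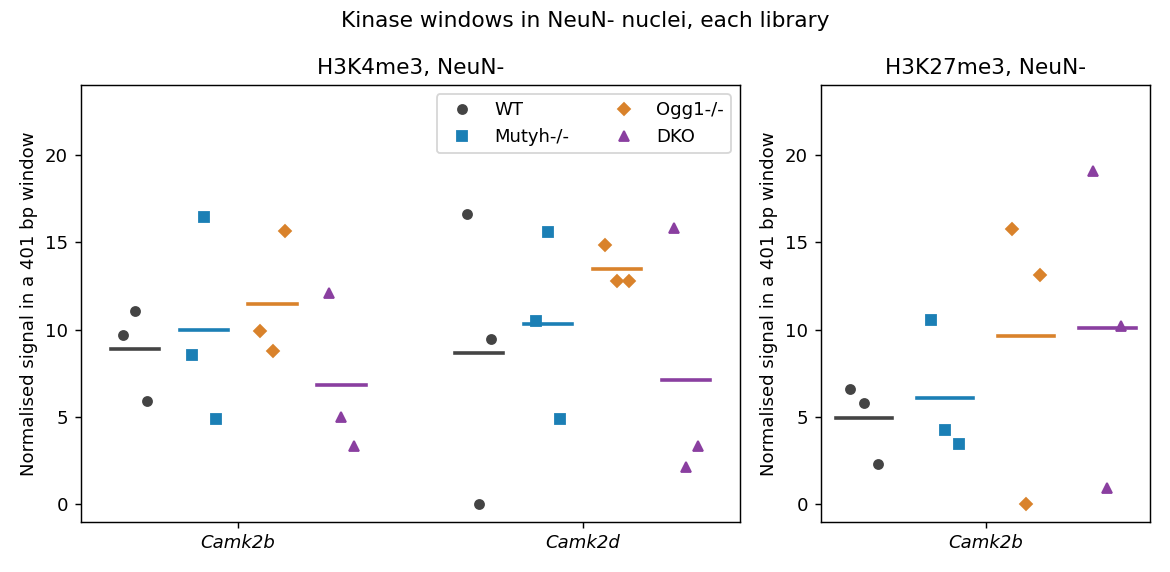
Normalised signal in the 401 bp windows of Camk2b and Camk2d for H3K4me3 (left) and of Camk2b for H3K27me3 (right) in NeuN- nuclei, with 1 point per library and a short line at the mean of the 3 libraries of a genotype. The 4 genotypes overlap in every window, and in WT and Ogg1-/- 1 library of a group had no read (Camk2d H3K4me3 and Camk2b H3K27me3).

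In the NeuN- tables the share of all windows meeting the DER definition was 2.94% in Mutyh-/-, 3.36% in Ogg1-/- and 2.29% in DKO for H3K4me3 and 2.00%, 4.18% and 2.30% for H3K27me3. The kinase windows that met it were 0 of 2 and 0 of 1. Groups without overlap made up 9.24%, 8.29% and 5.02% of H3K4me3 windows and 6.60%, 9.78% and 6.77% of H3K27me3 windows, and 0 kinase windows. Markers showed the state of the fractions. All 7 neuronal marker genes examined had an H3K4me3 peak in NeuN+ and 0 of 7 in NeuN-, where 4 had an H3K27me3 peak. Of the astrocyte, oligodendrocyte, microglial and endothelial markers, 2 of 19 (Slc1a3 and Mbp) had an H3K4me3 peak in NeuN+ and 1 of 19 (Olig1) in NeuN-, so most defining glial markers are not among the listed NeuN- H3K4me3 peaks. An H3K27me3 peak was found in NeuN- at 2 of these 19 (Cldn5 and Flt1, both endothelial). In NeuN+ it was found at 6 of the 19 and at 1 of the 7 neuronal markers (Gad1). A mark in fewer cells and less of a mark per cell cannot be told apart in these pools.

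The rest of the calmodulin pathway was read from a list of 43 genes: calmodulins, calmodulin-binding proteins, kinase inhibitors and phosphatases, calcineurin, downstream transcription factors and synaptic partners. In NeuN+, 38 of the 43 had an H3K4me3 peak, 3 an H3K27me3 peak and 0 a Suz12 peak. In NeuN-, 15 had an H3K4me3 peak, 2 an H3K27me3 peak and 0 a Suz12 peak. Counting promoter peaks only, 15 of the 38 with H3K4me3 in NeuN+ also had it in NeuN-, beside 26.0% of all such genes, and 1 of the 38 had H3K27me3 in NeuN+, beside 3.22%. All 3 calmodulin genes had an H3K4me3 peak in both fractions, while the 3 genes of calmodulin-sequestering proteins, Nrgn, Pcp4 and Gap43, had one in NeuN+ only, as most genes did. Of 204 combinations of a peak and a knockout, 0 had an adjusted p under 0.05 and 5 met the DER definition, 2 higher and 3 lower. They were 1 of 47 H3K4me3 windows of NeuN+ in Mutyh-/- (0.911% of all windows), 1 of 15 H3K4me3 windows of NeuN- in Mutyh-/- (2.94%) and 1 of 15 in Ogg1-/- (3.36%). The other pairs were 2 of only 4 H3K27me3 windows of NeuN+ in Ogg1-/-, where 3.82% of all windows met the definition, and 0 of these 4 met it in Mutyh-/- (3.78% of all) or DKO (3.36% of all). The count was 9 without WT replicate 1 and 0 without WT replicate 3. In H3K4me3 NeuN+ the median log2 fold change of these genes was -0.04, 0.18 and -0.04 for Mutyh-/-, Ogg1-/- and DKO, beside -0.07, 0.08 and -0.02 over all windows.

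The higher pair belonged to Crtc3, a coactivator of CREB. Its NeuN- H3K4me3 window gave 2.77, 10.2 and 0 in WT, 20.9, 16.4 and 4.88 in Mutyh-/-, 21.8, 14.4 and 9.94 in Ogg1-/-, and 16.7, 8.58 and 3.35 in DKO. Fold changes were 1.91 ± 0.87 and 2.17 ± 0.87 (log2, SE) in the single knockouts, and the groups overlapped WT. The lower pair with the largest changes belonged to calcineurin regulators, both in H3K27me3 NeuN+ and Ogg1-/-. Rcan3 gave 7.67, 12.2 and 12.9 in WT and 0, 1.05 and 9.25 in Ogg1-/- (log2 fold change -2.08 ± 0.94, SE). It gave 7.10, 2.21 and 12.0 in Mutyh-/- (-0.74 ± 0.94) and 0, 12.6 and 3.21 in DKO (-1.60 ± 0.94). The Rcan2 window that met the definition gave 0, 3.32 and 10.3 in WT and 0 in all Ogg1-/- libraries, which is too few reads for a fold change. The same window gave 1.01, 0 and 0 in Mutyh-/- and 1.09, 0 and 4.81 in DKO. Another H3K27me3 NeuN+ window of Rcan2 gave 1.10, 5.54 and 1.72 in WT and 0, 1.05 and 2.06 in Ogg1-/-, and did not meet the definition. The fifth, Ppm1f, a phosphatase that inactivates the CaM kinases, was named after its values were seen. Its NeuN+ H3K4me3 window gave 28.3, 22.4 and 25.8 in WT and 5.45, 16.5 and 7.88 in Mutyh-/-, without overlap (log2 fold change -1.40 ± 0.60, SE). In Ogg1-/- it gave 9.52, 4.10 and 29.2 (-1.17 ± 0.60), and in DKO 15.8, 16.9 and 16.7 (-0.60 ± 0.60). The DKO libraries also lay below WT.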

How the data were processed

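Per the labels, the authors aligned reads to GRCm38 (Bowtie2 2.3.5.1), called broad peaks, built consensus windows with DiffBind 3.10.1 and annotated them with ChIPseeker 1.36. Replicates were not pooled. How duplicates, blacklisted regions and input were treated is not given in the sources used here. The deposited values are signal, reads per window divided by 1 factor per library. All values were whole multiples of 1 step per library within 0.02 read, so reads were recovered. The 24 input samples were not used here. Members and gene lists were chosen with earlier results of these data known. All members are named, as are Ogg1 and Mutyh. Pathway genes are named where the adjusted p is under 0.05, or else the 2 largest changes per direction among windows meeting the DER definition. limma 3.58.1 (trend) was fitted to log2(signal + 1) of the 12 libraries of a table, with genotype as the only term and Benjamini-Hochberg adjustment over all windows. Such fold changes understate changes of low values. Where no other test is named, counts of windows meeting the DER definition come from this fit. For H3K27me3 and Suz12 in both fractions the prior degrees of freedom were infinite, so the spread of a single window did not enter its test. The tests of the Rcan2 and Rcan3 windows in H3K27me3 NeuN+ are among these. edgeR 4.0.16 quasi-likelihood and DESeq2 1.42.0 on recovered reads, other scalings, pseudocounts, filters, a replicate block and leaving out each library were alternatives. The functions were tested on simulated data. The study calls its 3 ChIP-seq replicates independent. Labels do not say that replicates share no animals, so p-values measure the spread between these samples.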

Additional observations from a re-analysis of the deposited data

How the results depend on the processing

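No kinase window had an adjusted p under 0.05 for a knockout against WT in any of the 23 alternatives, nor for a main effect, a difference among genotypes or a non-additive effect in any of the 22 run for these, and the lowest adjusted p against WT was 0.545. The number of kinase window and knockout pairs meeting the DER definition, 0 of 39, became 2 with TMM factors in limma, 3 with loess scaling, 4 with edgeR and TMM factors, and 1 each with edgeR and the deposited factors, DESeq2, robust empirical Bayes, a pseudocount of 4, a filter on the lowest 25% of windows (33 pairs left), and only the 6 libraries of a contrast. It was 0 to 3 when 1 library was left out, and 3 without DKO replicate 1. Of 891 pair values under alternatives, 23 met the definition and 4 changed sign by more than 1 SE. For the pathway list the count of 5 became 10 with TMM factors in limma and with loess scaling, 3 with edgeR and the deposited factors and with the filter on low values, and 0 to 9 when 1 library was left out. The count over all H3K4me3 NeuN+ windows also moved with scaling: for Mutyh-/-, 115 became 473 with TMM factors and 483 with loess, for Ogg1-/-, 122 became 481 and 503, and for DKO, 185 became 699 and 716. edgeR with TMM factors gave 506, 501 and 490 for these knockouts, DESeq2 378, 378 and 355, and edgeR with the deposited factors 119, 150 and 104. The cause was not tested. The order test gave 1 pair of neighbours with either other pseudocount and with each library left out. Only the number of pairs was kept in these runs, not which pair it was. At Camk1, loss of Ogg1 stayed negative and uncalled in all alternatives that gave a value, since the filter on low values removed that window.

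With the replicate block, 6 pathway pairs and 0 kinase pairs met the definition, 0 kinase pairs passed adjustment, and the Camk1 value was -0.31. In the 3 tables with kinase windows, deviations of same-numbered libraries from their group means correlated between -0.10 and 0.15 across windows. Such weak correlation over all windows does not exclude a pairing by number. In NeuN- H3K4me3 and H3K27me3, replicate 1 of every genotype had the smallest share of reads at its highest window. No such order held in NeuN+ H3K4me3.

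Read numbers were low at some windows: Camk1g rested on 0 to 26 reads per library and the NeuN- windows on 0 to 22.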

Other observations

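A window inside Camk1d was not counted with the kinases because its deposited annotation names Ccdc3, the gene with the nearest start. It lies at chr2:5379119-5379519 (GRCm38), in intron 3 of 10 of a Camk1d transcript by that annotation, and it was among the peaks of all 6 tables, shifted by at most 9 bp. In NeuN+ it ranked 25 of 4132 in H3K27me3 and 17 of 775 in Suz12, but 11882 of 12628 in H3K4me3. In NeuN- it ranked 24 of 1698 in H3K27me3, 40 of 312 in Suz12 and 47 of 3270 in H3K4me3. Its signal in H3K27me3 NeuN+ ran from 15.9 to 85.8 over the 12 libraries, with a median of 49.4, and in Suz12 NeuN+ from 7.38 to 118, with a median of 79.2. Between 23.4% and 24.9% of its bases were soft-masked, and it held 19 CpG at about 49% GC. Of the 312 Suz12 NeuN- windows, 38 were overlapped by a window in each of the other 5 tables. Input libraries, which would show whether this interval is also high without an antibody, were not used here.

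At the far end of Camk2g, within 2000 bp of the gene, a window annotated to the neighbouring gene Ndst2 carried H3K4me3 in both fractions, with a mean signal of 27.6 in NeuN+ and 11.2 in NeuN-. Camk2g itself, with a mean of 25.5 in NeuN+, had no NeuN- peak.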
